A study of Homo sapiens with 4 samples.

Results

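The genes described here encode the protein components of the mitochondrial ribosome. They were chosen by name: protein-coding genes whose current symbol is MRPL or MRPS followed by a number, found by matching the Ensembl IDs of the table to symbols. This gave 71 genes of the 36525 in the table. RNA was sequenced from LM2 cells, a lung metastatic line derived from MDA-MB-231, which is a mesenchymal human breast cancer line. Control cells gave 2 libraries and cells depleted of the splicing regulator hnRNPM gave another 2, all collected 48 h after plating. The labels call the agent an shRNA in one place and an siRNA in another, so "knockdown" is used here. They do not say whether replicates were grown separately, and the spread behind each p-value may then be only technical. The series title concerns splicing and metastasis, and values per gene do not resolve splicing.

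The mitochondrial ribosome translates the few proteins still encoded by mitochondrial DNA, all of them subunits of the respiratory chain and ATP synthase. Its RNAs come from mitochondrial DNA, but every one of its proteins is encoded in the nucleus, made in the cytosol and imported. A large subunit joins amino acids and releases the chain through an exit site at the inner membrane, and a small subunit reads the messenger. Many of the proteins have a bacterial relative with the same number, and the rest were added during the evolution of mitochondria. Loss of single members causes inherited defects of oxidative phosphorylation.

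Values are RPKM, reads divided by gene length and a read total. The total estimated from low values was shared by both libraries of a group (41.9 M control, 29.7 M knockdown). Deposited values of replicates are then not adjusted for the depth of each library. Low values fit a length that joins all annotated exons of a gene, so levels compared between genes depend partly on annotation. HNRNPM itself stood at 88.6 and 102 RPKM in control cells and 11.5 and 12.95 RPKM after knockdown, low in both libraries labelled knockdown. The cells also matched their label: 5 markers of a mesenchymal breast cancer line summed to between 925 and 1180 RPKM. The sum of 7 luminal epithelial markers was between 13.0 and 24.5 RPKM, and that of 2 endothelial markers at most 0.0667 RPKM. Only 1 of the 7 luminal markers, PGR, was at 0 throughout. The luminal sum was between 13.0 and 14.6 RPKM in control cells and between 22.2 and 24.5 RPKM after knockdown, and its part in the results below was not tested. Estimated reads were 23.0 M and 26.6 M in control replicates 1 and 2, and 16.5 M and 18.3 M in the knockdown replicates. Within each group, replicate 2 was above replicate 1 for all 70 tested members, by a median ratio of 1.15 in control cells and 1.11 in the knockdown libraries. A library-wide factor of this kind enters the error of every gene, so each comparison was also made after median-ratio scaling, which divides each library by a factor taken over all genes.

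Of 78 names of this kind considered, 7 were not analysed here: MRPS26, MRPL39, MRPS6 and MRPL40, which lie on chromosomes 20, 21 and 22, where the table has 0 genes, and MRPL12, MRPL45 and MRPS21. MRPS36 was kept under its name in the symbol table, although its protein is now known as a subunit of the 2-oxoglutarate dehydrogenase complex. MRPS30 and MRPS18A were counted with the large subunit, where structures of the ribosome place their proteins. By this count 47 members belong to the large and 24 to the small subunit, and 70 of the 71 had a mean RPKM of at least 1 and were tested.

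The sequences around the start sites of members that changed are shown first, because the promoters of this family were searched for short motifs. RefSeq promoter windows (build GRCh38.p14, 250 bases before to 50 after the start) were matched for 62 of the 71 members, which gave 78 windows. The core of the ETS factor motif, CCGGAAG, stood in 38.5% of the member windows, against 18.1% of 11113 windows of tested protein-coding genes and 10.3% of all 35116 windows. The extended YY1 motif AAGATGGC stood in 28.2%, against 5.35% and 2.89%. The NRF1 core GCATGCGC was found in 7.69%, against 4.99% and 3.05%, and the E-box CACGTG, which MYC binds, in 10.3%, against 9.84% and 7.26%. The TATA box TATAAA was in 3.85%, against 5.75% and 11.5%, and the CCAAT box CCAAT in 34.6%, against 35.5% and 34.6%. Each motif was searched on both strands, and none of these motifs contains another. These are matches of letters, not sites shown to be bound. Below are the last 100 bases before and the first 10 after the start for 4 members past the threshold that have a match, with ETS and YY1 matches in capitals.
MRPL33 (rose; chr2:27771619-27771728, + strand): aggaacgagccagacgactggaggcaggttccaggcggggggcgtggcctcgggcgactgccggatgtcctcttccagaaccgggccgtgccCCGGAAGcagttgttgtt
MRPS23 (rose; chr17:57850035-57850144, - strand): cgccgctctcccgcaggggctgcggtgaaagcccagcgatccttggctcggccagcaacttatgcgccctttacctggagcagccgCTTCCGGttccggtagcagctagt
MRPL52 (fell; chr14:22829787-22829896, + strand): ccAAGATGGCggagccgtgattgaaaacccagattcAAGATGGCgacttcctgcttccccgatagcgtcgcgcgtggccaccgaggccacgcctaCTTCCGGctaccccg
MRPL48 (fell; chr11:73787774-73787883, + strand): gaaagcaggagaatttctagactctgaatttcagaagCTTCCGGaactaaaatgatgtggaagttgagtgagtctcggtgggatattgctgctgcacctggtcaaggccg

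An ETS match was thus present both in members that rose and in members that fell. MRPL52 also held an NRF1 match further upstream, MRPL50 had a YY1 match after its start, and MRPL44 had none of the ETS, YY1 and NRF1 letters in its window. MRPL13, MRPL23 and MRPL35, which all fell, had no matched window and were not searched.

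Most members did not pass the test, and the few that did moved in both directions. Of the 70 tested members, 4 rose, 5 fell and 61 did not pass (limma on log2(RPKM + 0.5), Benjamini-Hochberg adjusted over 13627 genes, threshold 0.05). Across all tested genes 36.4% passed, 14.7% upward and 21.8% downward, so the 9 members called are 12.9% of the family against 36.4% of the background. The median log2 fold change was −0.03 for the members and −0.07 for all genes. The quartiles were −0.18 and 0.13 for the members, and −0.37 and 0.23 for all genes. Both knockdown libraries were above both control libraries for 18.6% of members and below both for 25.7%, against 28% and 38.8% of all tested genes. In RNA from whole cultures, fewer cells with a transcript and less RNA per cell cannot be told apart.

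After median-ratio scaling the same 9 members passed in the same direction, and 34 more did, giving 25 higher, 18 lower and 27 not passed. The background then was 61% of 13624 genes, 31.1% upward and 29.9% downward, close to the 61.4% of the family. Groups then did not overlap for 50% of members upward and 31.4% downward, against 41.6% and 40.8% of all genes. The median became 0.05, against 0.00 for all genes. The 21 members higher on this scale alone had log2 fold changes between 0.08 and 0.42, and the 13 lower on this scale alone between −0.29 and −0.10. So the sign of the family median depends on the scaling, and 61 members had a log2 fold change within 0.4 of zero on the deposited scale.

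**Figure D1:**
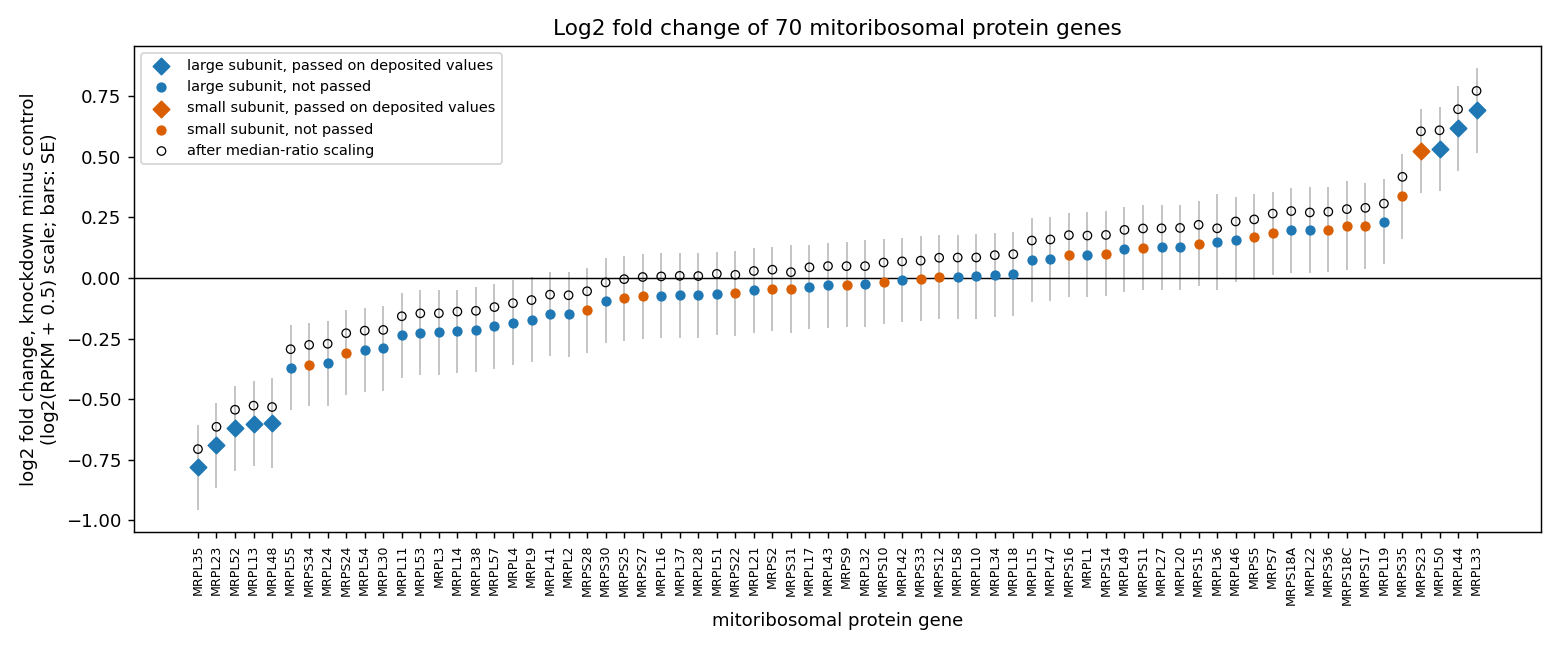
Log2 fold change (knockdown minus control, y axis) of the 70 tested genes, ordered along the x axis. Filled symbols are deposited values with SE bars, coloured by subunit, diamonds are the 9 genes past the threshold, and open circles are the values after median-ratio scaling. The 9 diamonds stand apart at both ends, and the other 61 lie between −0.37 and 0.34.

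Among the members that rose, MRPL33 had the largest change. It encodes bL33m, a small protein of the large subunit whose transcript is known to be alternatively spliced. It was at 14.7 and 17.4 RPKM in control cells and 24.8 and 27.5 RPKM after knockdown. Both knockdown libraries were above both control libraries, a 1.63-fold higher mean with a log2 fold change of 0.69 ± 0.17 (SE; adjusted p = 0.000471). MRPL33 shares 21.1% of its exon positions with BABAM2 on the same strand, which had a mean of 2.86 RPKM.

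MRPL44 encodes mL44, a protein with a ribonuclease III-like fold at the polypeptide exit site. Its values were 8.48 and 9.01 RPKM in control cells and 12.7 and 14.7 RPKM after knockdown. The groups did not overlap, and the log2 fold change was 0.62 ± 0.18 (SE; adjusted p = 0.00209). An antisense gene on the opposite strand, ENSG00000228802, covers 12.9% of its exon positions and had a mean of 4.22 RPKM. No source used here says whether the counting used strand, so reads of the 2 genes cannot be told apart.

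MRPL50, another large-subunit protein without a bacterial relative, was at 5.50 and 6.55 RPKM in control cells and 8.45 and 9.37 RPKM after knockdown. MRPS23 was the only small-subunit member that passed on the deposited values. It was at 35.9 and 41.98 RPKM in control cells and 53.5 and 58.7 RPKM after knockdown, the highest level reached by any of the 9. For both genes each knockdown library exceeded each control library. Their log2 fold changes were 0.53 ± 0.18 for MRPL50 (SE; adjusted p = 0.00913) and 0.52 ± 0.17 for MRPS23 (SE; adjusted p = 0.00921).

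All 5 members that fell belong to the large subunit. MRPL35, which encodes bL35m, fell most. It was at 7.68 and 8.51 RPKM in control cells and 4.28 and 4.71 RPKM after knockdown, a 1.80-fold lower mean. The log2 fold change was −0.78 ± 0.18 (SE; adjusted p = 6.4e-05). A processed pseudogene named after it, MRPL35P3, was listed at 9.84 and 12.5 RPKM in control cells and 8.06 and 9.91 RPKM after knockdown. Reads that match both could have been split between them, so the level of MRPL35 is uncertain.

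MRPL23 encodes uL23m, which lines the exit site where the new chain leaves. It was at 6.18 and 7.19 RPKM in control cells and 3.89 and 4.001 RPKM after knockdown, with a log2 fold change of −0.69 ± 0.18 (SE; adjusted p = 0.000514). MRPL23 and MRPL44, both assigned to the exit site, thus moved in opposite directions. The other 4 tested exit-site members (MRPL17, MRPL22, MRPL24 and MRPL47) did not pass, with log2 fold changes of −0.04, 0.20, −0.35 and 0.08. After scaling MRPL22 was higher (0.27) and MRPL24 lower (−0.27).

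MRPL52, a large-subunit protein without a bacterial relative, was at 9.55 and 10.98 RPKM in control cells and 6.15 and 6.83 RPKM after knockdown (log2 fold change −0.62 ± 0.18, SE; adjusted p = 0.00194). MRPL13, the relative of bacterial L13, was at 5.83 and 6.83 RPKM in control cells and 3.78 and 4.21 RPKM after knockdown (−0.60 ± 0.18, SE; adjusted p = 0.00281). MRPL48, in the central protuberance that contacts the small subunit, was at 2.57 and 2.82 RPKM in control cells and 1.46 and 1.77 RPKM after knockdown (−0.60 ± 0.19, SE; adjusted p = 0.00536). In each of these genes both knockdown libraries lay below both control libraries. The remaining 5 tested members assigned here to the central protuberance (MRPL18, MRPL27, MRPL38, MRPL46 and MRPL58) did not pass. Their log2 fold changes ran from −0.21 to 0.16. MRPL52 and MRPL55 were assigned to no named site here, so this group may be incomplete. After scaling 3 central protuberance members were higher (MRPL18, MRPL27 and MRPL46) and 2 lower (MRPL38 and MRPL48). MRPL46 shares 11.3% of its exon positions on the same strand with ENSG00000173867, which had a mean of 40.2 RPKM. MRPL38 shares 37.5% on the same strand with ENSG00000267426, for which no value was given. Reads of such overlapping genes cannot be told apart here.

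**Figure D2:**
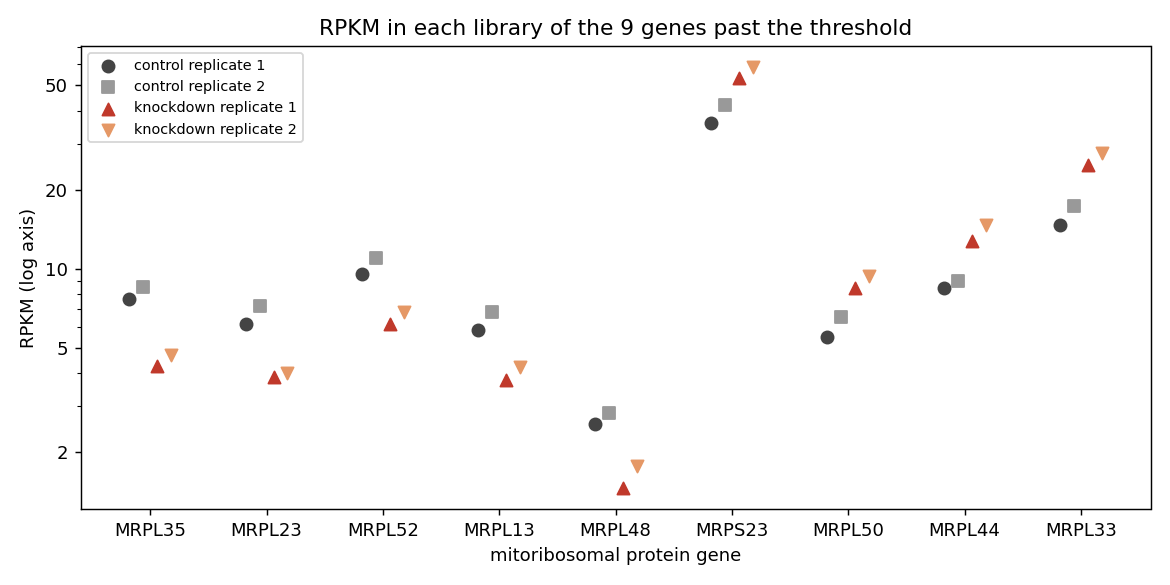
RPKM (log axis) of the 9 genes past the threshold in each of the 4 libraries, shown as separate symbols. In the 5 genes on the left both knockdown libraries are below both control libraries, and in the 4 on the right both are above.

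On the deposited values the call of these 9 depended on the filter and on single libraries. With no filter on low values 0 of the 9 passed limma's test, and 13 of 71 members had an unadjusted p under 0.05. Without knockdown replicate 1, 0 of the 9 passed limma's test, and 5 of the 70 members had an unadjusted p under 0.05. Without control replicate 1 the 5 that fell still passed, and the 4 that rose did not. Without control replicate 2, MRPL33 and MRPL35 passed, and without knockdown replicate 2, MRPL35 and MRPL48. In each of these fits all 9 kept their direction. After median-ratio scaling all 9 passed in each fit that left out a library, an alternative chosen after seeing the data. In every fit without a library 1 group has a single sample, which is assumed to vary like the other group. The SE of the scaled log2 fold change ran from 0.017 for MRPS23, at 37.5 and 38.0 in control cells and 57.9 and 57.4 after knockdown, to 0.066 for MRPL48, at 2.68 and 2.55 in control cells and 1.58 and 1.73 after knockdown.

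Of large-subunit members 17.0% passed on the deposited values and of small-subunit members 4.3%, against 36.4% of all tested genes. After scaling 61.7% and 60.9% passed, against 61%. The subunits were not tested against each other. In the large subunit 3 of 47 members rose, 5 fell and 39 missed the threshold (median log2 fold change −0.06). In the small subunit 1 of 23 rose and 22 missed it (median 0.00), and of those with a negative fold change 1, MRPS34, had an unadjusted p under 0.05 in limma. After scaling, 13 large-subunit members were higher and 16 lower (median 0.02), and 12 small-subunit members were higher and 2 lower (median 0.08). The 2 small-subunit members lower on that scale were MRPS34 and MRPS24. MRPS34, of the body of the subunit, was at 44.3 and 50.3 RPKM in control cells and 35.3 and 38.3 RPKM after knockdown, and its groups did not overlap. Its log2 fold change was −0.36 on the deposited scale (adjusted p = 0.0926) and −0.28 after scaling (adjusted p = 0.00139).

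MRPS35, of the head of the small subunit, came closest to the 4 that rose. It was at 23.2 and 26.4 RPKM in control cells and 29.4 and 33.4 RPKM after knockdown, with a log2 fold change of 0.34 (adjusted p = 0.119), or 0.42 after scaling (adjusted p = 0.000919). The other 6 members assigned to the head here ran from −0.04 to 0.18 on the deposited scale. In limma 0 of these 7 passed, with 0 at an unadjusted p under 0.05. After scaling 3 of the 7 were higher, MRPS35, MRPS7 (0.27, adjusted p = 0.00393) and MRPS14 (0.18, adjusted p = 0.0466). MRPS24, at −0.31 and lower after scaling (−0.23), was assigned to no named site here, so this count of the head may be incomplete. In the L7/L12 stalk, which recruits translation factors, MRPL10, MRPL11, MRPL53 and MRPL54 had log2 fold changes of 0.01, −0.24, −0.23 and −0.30, and 0 of 4 passed in limma, with 0 at an unadjusted p under 0.05. After scaling the last 3 of these were lower, at −0.16, −0.15 and −0.22 (adjusted p = 0.0122, 0.0361 and 0.0271). MRPL53 shares 45.2% of its exon positions with CCDC142 on the same strand, which had a mean of 4.60 RPKM. The stalk protein MRPL12 was not analysed here.

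Members with and without a bacterial relative were found in both directions. Among 44 tested members with a bacterial relative, 1 rose and 3 fell, and among 26 without one, 3 rose and 2 fell, with medians of −0.01 and −0.06, where 36.4% of all genes passed. After scaling, 18 were higher and 11 lower with a relative, and 7 higher and 7 lower without one, with medians of 0.07 and 0.01, so the balance among members with a relative depends on the scaling.

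RPKM levels differed widely between members, and part of this can lie in the exon length used. MRPL42, with 16393 exon bases, had 4622 estimated reads and 6.73 RPKM in control replicate 1. MRPL51, with 1551 exon bases, had 4205 estimated reads and 64.7 RPKM there. In the control libraries the mean RPKM of the 70 members had a median of 11.2, with 22 members above 20 RPKM, 39 between 5 and 20 RPKM and 9 below 5 RPKM. The highest was 62.5 times the lowest. MRPL51 led, at 64.7 and 74.5 RPKM in control cells and 63.8 and 69.1 RPKM after knockdown. MRPL14 followed, at 63.6 and 73.1 RPKM in control cells and 54.4 and 62.7 RPKM after knockdown. MRPL51 exceeded MRPL14 in each of the 4 libraries. After scaling they stood at 67.5 in both control libraries for MRPL51 and at 66.3 and 66.2 for MRPL14, without overlap. Next came MRPL54, MRPS34 and MRPS7, with control means of 48.6, 47.3 and 45.4 RPKM. The scaled control values of MRPL54 (48.9 and 45.6) overlapped those of MRPS34 (46.2 and 45.6), which lay above those of MRPS7 (45.1 and 43.1). After knockdown MRPS7 was above MRPS34, at 53.1 in both libraries against 38.1 and 37.5 on the scaled values. MRPL51 shares 31.3% of its exon positions with NCAPD2 on the opposite strand, which had a mean of 31.8 RPKM.

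The lowest tested member was MRPL36, which encodes bL36m, at 1.08 and 1.15 RPKM in control cells and 1.14 and 1.45 RPKM after knockdown. It had 63, 67, 47 and 60 estimated reads in control replicates 1 and 2 and knockdown replicates 1 and 2, the lowest of which was also the lowest of any tested member. Above it came MRPS18C, MRPS31, MRPL48 and MRPL32, with control means of 2.13, 2.60, 2.69 and 3.31 RPKM. Across the tested members estimated reads per library had a median of 1126, and 3 members had fewer than 200 in some library.

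The order of levels was largely kept after knockdown. Across the 70 genes, log2 control and log2 knockdown means had a Pearson correlation of 0.973, given as a description, since genes share the same libraries. Only MRPL44 and MRPL52 moved by more than 10 places, MRPL44 from 47 to 28 and MRPL52 from 40 to 51. The fold change showed little relation to the control level (Pearson correlation −0.05 across 70 genes) or to exon length (0.03).

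**Figure D3:**
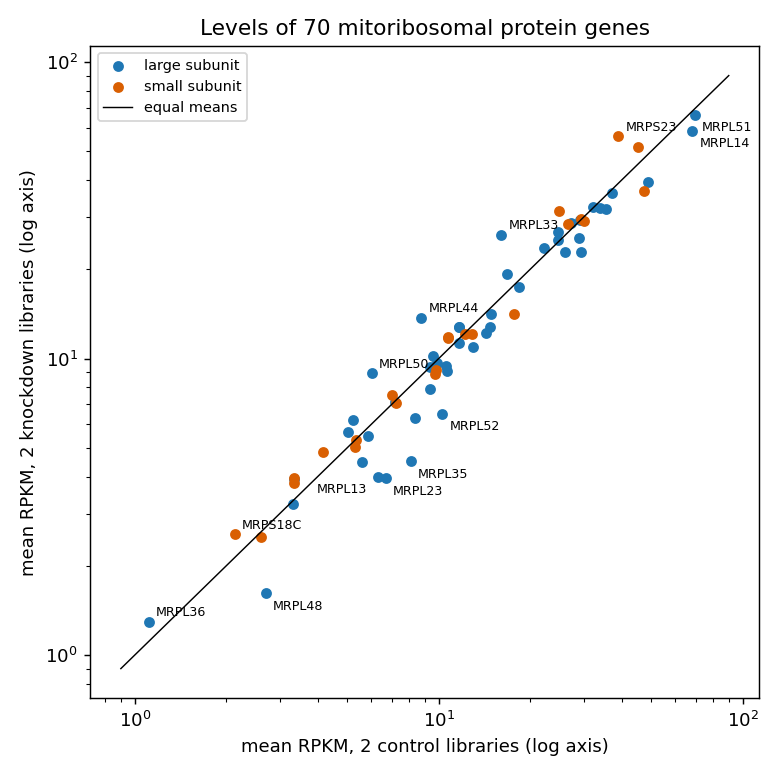
Mean RPKM of the 70 tested genes in the 2 control libraries (x, log axis) and the 2 knockdown libraries (y, log axis), coloured by subunit, with a line of equal means. Most points follow the line from MRPL36 near 1 RPKM to MRPL51 near 70 RPKM, and the labelled genes past the threshold lie off it.

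The MRPS18 genes are 3 paralogs related to bacterial S18, and they had very different values. MRPS18A, whose protein sits in the large subunit, was at 15.9 and 17.6 RPKM in control cells and 18.5 and 20.03 RPKM after knockdown. MRPS18C was at 2.02 and 2.25 RPKM in control cells and 2.49 and 2.63 RPKM after knockdown. Neither overlapped between groups, and neither passed on the deposited scale (log2 fold changes 0.20 and 0.22, adjusted p = 0.401 and 0.375). After scaling both were higher, at 0.28 for each (adjusted p = 0.00416 and 0.016). MRPS18A shares 47% of its exon positions with RSPH9 and MRPS18C 40.2% with ABRAXAS1, each on the opposite strand.

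MRPS18B was the member below the filter. It was listed at 0.0506 RPKM in each control library and at 0.0714 and 0.0893 RPKM after knockdown, which corresponds to 4 or 5 estimated reads per library. MRPS18B lies in the major histocompatibility complex on chromosome 6. The table held 47 other protein-coding genes with starts within 1.5 Mb of it, and 47 of 47 had a mean below 0.1 RPKM, the highest at 0.025 RPKM. They included ABCF1 and DDX39B. Since its neighbours were also below 0.1 RPKM, no level is read from it.

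Pseudogenes of this family are many, and 40 named after MRPL or MRPS genes were in the table. Of these, 32 had a mean below 0.5 RPKM and 5 reached at least 1 RPKM. Besides MRPL35P3, the highest was MRPL53P1, at 7.18 and 7.66 RPKM in control cells and 6.61 and 8.66 RPKM after knockdown. MRPL53 itself was at 13.1 and 15.6 RPKM in control cells and 11.3 and 13.1 RPKM after knockdown. No source used here says how reads with several matches were handled.

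Some proteins of the ribosome carry other names. DAP3, PTCD3, AURKAIP1, CHCHD1 and GADD45GIP1 were all tested, and 0 of 5 passed in limma, 0 of them at an unadjusted p under 0.05, with log2 fold changes between −0.13 and 0.30. After scaling 3 of the 5 were higher: CHCHD1 (0.38, adjusted p = 0.00485), PTCD3 (0.19, adjusted p = 0.0146) and DAP3 (0.16, adjusted p = 0.041). CHCHD1, of the small subunit, was at 24.0 and 26.1 RPKM in control cells and 28.6 and 33.5 RPKM after knockdown. GADD45GIP1, of the large subunit, was higher than any member, at 75.1 and 85.5 RPKM in control cells and 68.8 and 78.2 RPKM after knockdown. Of 24 tested assembly factors of the mitochondrial ribosome, 1 passed and it fell: NSUN4, an RNA methyltransferase of the small-subunit RNA (2.34 ± 0.247 against 1.38 ± 0.124 RPKM, SD, n = 2; log2 fold change −0.59, limma adjusted p = 0.00674). The median of that list was −0.11, and 5 of its genes had an unadjusted p under 0.05. After scaling 8 were higher and 6 lower. In this list 4.2% passed on the deposited values and 58.3% after scaling, against 36.4% and 61% of all tested genes.

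Of 15 tested translation factors, GFM2, which takes part in recycling the ribosome, rose (0.45) and MTFMT, which formylates the initiator tRNA, fell (−0.63), and 13 did not pass (median −0.02). After scaling 6 were higher and 2 lower. Of 19 mitochondrial aminoacyl-tRNA synthetase genes, FARS2 (−0.84) and TARS2 (−0.46) fell and 17 did not pass, against 5 higher and 7 lower after scaling. Of 18 genes of mitochondrial RNA processing, 1 rose and 3 fell. The one that rose, HSD17B10, went from 22.7 ± 1.45 to 73.2 ± 3.27 RPKM (SD, n = 2; log2 fold change 1.67), while PRORP, which encodes its partner in mitochondrial ribonuclease P, fell (−0.67), as did GTPBP3 (−0.91) and PUS1 (−0.48). After scaling 8 of these genes were higher and 4 lower. Passing shares of the translation factor, synthetase and RNA processing lists were 13.3%, 10.5% and 22.2%, against 36.4% of all tested genes. After scaling they were 53.3%, 63.2% and 66.7%, against 61%.

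Of 11 genes for mitochondrial DNA transcription and replication, 1 rose and 3 fell. TFAM, which packages mitochondrial DNA and starts its transcription, fell from 14.4 ± 1.20 to 8.69 ± 1.11 RPKM (SD, n = 2; −0.70). The other 2 that fell were PRIMPOL (−0.84) and TOP1MT (−0.84), and TEFM rose (0.44), and after scaling 3 of the 11 were higher and 4 lower. Of 7 tested nuclear regulators of mitochondrial genes, 1 passed, MYC, which fell (−0.64), and after scaling 3 were lower, MYC, NRF1 and YY1. NRF1 and YY1, whose motifs were counted above, were at −0.41 and −0.26 on the deposited values and did not pass there (adjusted p = 0.0542 and 0.248). GABPA, the ETS factor of this list, was not analysed here. Of 18 tested genes of mitochondrial protein import, TOMM70 (0.68) and TIMM17A (0.55) rose, TOMM5 (−0.47) and MIPEP (−0.50) fell, and 14 did not pass, against 8 higher and 4 lower after scaling. Of 11 mitochondrial chaperones and proteases, 0 passed in limma and 1 had an unadjusted p under 0.05, while 2 were higher and 1 lower after scaling. The smallest p belonged to HSPE1, SPG7 and OMA1 (log2 fold changes −0.40, −0.30 and 0.30). In the order of this paragraph, 36.4%, 14.3%, 22.2% and 0% of the lists passed, against 36.4% of all tested genes. After scaling 63.6%, 42.9%, 66.7% and 27.3% did, against 61%.

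Transcripts that this ribosome reads were mostly higher after knockdown. Of the 13 mitochondrially encoded proteins, 10 rose and 3 missed the threshold (median log2 fold change 0.61), and each of the 13 had a positive fold change. MT-CO2 rose from 73.2 ± 4.94 to 146 ± 4.18 RPKM (SD, n = 2), MT-CYB by 0.86 and MT-ATP6 by 0.80 on the log2 scale. Of 74 tested cytosolic ribosomal protein genes, 1 rose and 9 fell (median −0.17), led by RPL13A (−1.81), RPL39L (−1.20) and RPS28 (−0.69). Their median control level was 7.62 RPKM, against 11.2 RPKM for the mitoribosomal members. How reads with several matches were handled is not known, so the levels of these genes are uncertain. Of 68 nuclear respiratory chain subunits, 4 rose and 4 fell (median −0.10), with UQCRFS1 (0.63), NDUFA8 (0.60) and NDUFB6 (−0.55) having the smallest p. After scaling, 13 of 13 mitochondrially encoded genes were higher (median 0.69). Of the cytosolic ribosomal genes 13 were then higher and 31 lower (median −0.10), and of the respiratory chain genes 15 higher and 18 lower (median −0.02), against a median of 0.05 for the members. On the deposited values 76.9% of the mitochondrially encoded, 13.5% of the cytosolic ribosomal and 11.8% of the respiratory chain genes passed, against 36.4% of all tested genes. After scaling these shares were 100%, 59.5% and 48.5%, against 61%. These differences between lists were not tested. Of the 46 genes of the related lists that passed, 3 still did with no filter on low values and 32 with the filter raised to 5 RPKM. Between 10 and 19 did when a library was left out at the deposited scale, and between 43 and 45 when this was done after median-ratio scaling.

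**Figure D4:**
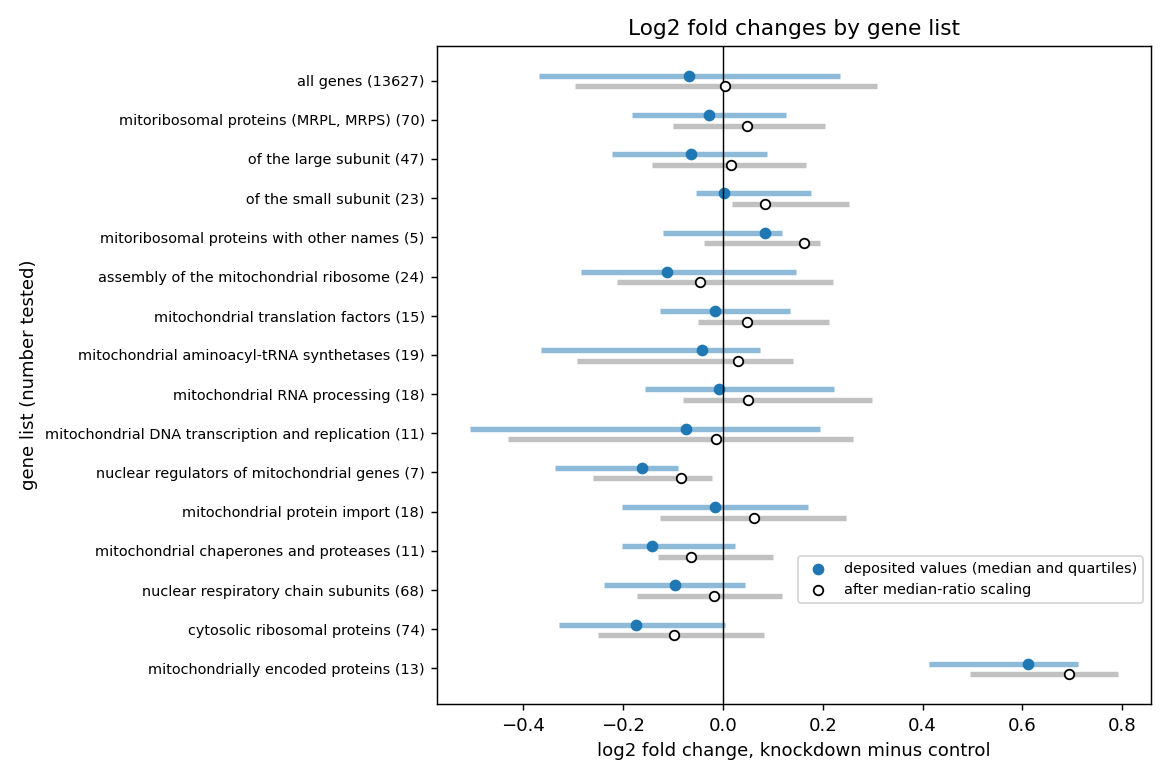
Median (points) and quartiles (bars) of the log2 fold change for each gene list, with the number of tested genes in parentheses. Filled points are deposited values and open points are after median-ratio scaling. The mitoribosomal lists lie near 0, and the 13 mitochondrially encoded genes lie to the right with a median of 0.61.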

How the data were processed

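RNA was measured in 2 control and 2 hnRNPM knockdown libraries. The authors deposited 1 table of RPKM values, and the alignment, per the submitters' processing notes, used Bowtie 0.12.7 and hg19. The sources used here do not name a counting program. Steps among low RPKM values gave a read total of 41.9 M shared by both control and 29.7 M by both knockdown libraries. With GENCODE 29 exon lengths, 82.8% of 37222 low RPKM values came to a whole number of reads (tolerance 0.1). RPKM summed to 162466 and 187293 (control) and to 163078 and 180958 (knockdown). Symbols came from a current table for 32172 IDs and from GENCODE 29 for 136, while 4217 stayed unnamed. No column was left unused (0 columns).

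Log2(RPKM + 0.5) values of 13627 genes (mean RPKM 1 or more) were fitted with limma 3.58.1 in R 4.3.3 (group alone, variance trend, Benjamini-Hochberg adjustment over all tested genes), checked first on simulated data. A log2 fold change is the knockdown minus the control mean on this scale, and understates the change of low genes. In this fit all genes take limma's trended variance, as its prior degrees of freedom were infinite. They were 1.24 with no filter and 1.65 after median-ratio scaling, so each gene's own spread also counted in those fits. With 2 libraries a group, an exact permutation test cannot go below p = 0.333, so none was run. Alternatives changed the scaling, pseudocount, filter, genes tested, variance model, replicates and pairing.

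The members and lists were chosen with earlier results of these data known. Named genes were the members past the threshold, the 5 largest and smallest changes, the 5 highest and lowest levels, the MRPS18 genes, members below the filter, mitoribosomal proteins with other names, and up to 3 genes per related list with the smallest p. Further names complete a count or a structural group and were chosen after their values were seen. Overlaps and gene types come from GENCODE 29, and motif searches from RefSeq windows of GRCh38.p14, another build than the authors' hg19. Some marker values are not reported here.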

Additional observations from a re-analysis of the deposited data

How the results depend on the processing

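The direction of each of the 9 called members was kept in every setting that tested it. Members higher numbered 25 with median-ratio scaling, 19 with scaling to the RPKM sum, 0 without a filter and 8 with the replicate number as a block, against 4. Members lower numbered 18, 20, 0 and 18 in those settings, against 5. Without a filter 262 of all genes were higher and 255 lower, and 13 of 71 members had an unadjusted p under 0.05. Leaving out a library gave 0 to 1 members higher and 0 to 5 lower. Together with median-ratio scaling, chosen after seeing the data, leaving out a library gave 11, 12, 18 and 21 higher and 10, 9, 13 and 13 lower, and the replicate block 23 higher and 15 lower. The samples share only a number: the deviations of same-numbered libraries correlated at 0.031, and no pairing is given in the labels.

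Over all genes, 4238 were higher with median-ratio scaling, 3696 higher and 4632 lower with scaling to the RPKM sum, 1047 and 1321 with the filter raised to 5 RPKM, and 3109 higher and 4318 lower with the replicate block. Leaving out a library gave 759 to 1158 higher and 1057 to 2007 lower at the deposited scale, and 3122, 3138, 3579 and 3563 higher with median-ratio scaling, with which the replicate block gave 3916 higher. The median of the assembly factors was 0.11 with the filter at 5 RPKM, against −0.11. That of the mitochondrial DNA genes, −0.07 on deposited values, was 0.13 there, −0.196 to 0.0489 when a library was left out, and 0.0309 and 0.0321 after scaling without control replicate 2 or knockdown replicate 2. The raised filter tests fewer genes; the cause of the other shifts was not tested. The pseudocount, the gene set and the variance model moved no count of members by over 1.5 times. MRPL36, with 47 to 67 estimated reads per library, is limited by depth.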
